A study of Mus musculus with 20 samples.

Results

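The genes described here are 10 hepatocyte genes that depend on Wnt signaling and are known for their expression around the central vein of the liver lobule: Axin2, Lgr5, Glul, Cyp2e1, Cyp1a2, Oat, Rnf43, Znrf3, Tbx3 and Sp5. They are a list of names, drawn up with earlier results of these data known, and all 10 symbols matched an Ensembl identifier among the 57010 genes of the count table. RNA was sequenced from 10 livers and 10 kidneys of 12-month-old male UM-HET3 mice, a genetically heterogeneous stock bred from several inbred strains, so that mice of a group are not genetically identical. The 6 mice of the 7c group received repsox, tranylcypromine, DZNep, CHIR99021, forskolin and TTNPB at 0.1 mg/kg/day each with valproate at 1 mg/kg/day, and the 4 mice of the vehicle group received the solvent, 50% DMSO and 50% PEG300, alone. All mice carried subcutaneous osmotic minipumps for 28 days, and the labels give no altered allele for either group. The labels call the samples biological replicates, and the 20 libraries come from whole tissue, in which fewer cells of a type and less RNA per cell cannot be told apart.

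Hepatocytes differ along the line from the portal vein to the central vein. Endothelial cells of the central vein secrete the ligands Wnt2 and Wnt9b with the R-spondin Rspo3, and in the hepatocytes next to them beta-catenin escapes phosphorylation by the kinase GSK3, enters the nucleus and activates target genes with transcription factors of the TCF/LEF family. One of the 7c compounds, CHIR99021, inhibits GSK3, so the pericentral genes read the step of the pathway that this compound is known to act on. Axin2 is a scaffold of the complex that destroys beta-catenin and a feedback target of the pathway in most tissues, Lgr5 is a receptor for R-spondins, and Rnf43 and Znrf3 are ubiquitin ligases that remove Wnt receptors from the cell surface. Sp5 and Tbx3 encode transcription factors induced by Wnt signaling, and Glul (glutamine synthetase), Oat (ornithine aminotransferase), Cyp2e1 and Cyp1a2 encode enzymes of ammonia, amino acid and xenobiotic metabolism.

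The core motif bound by TCF/LEF factors, CTTTGAT or CTTTGAA on either strand, was searched in the 250 bases upstream of the start of each gene's canonical transcript (GENCODE vM39 on GRCm39). It was present in 4 of the 10 members and in 1641 of the 21757 promoters searched (7.54%). These 4 promoters are shown because they hold the letters searched for. Each is written 5′ to 3′ on the strand of its gene, ends at the base before the transcript start, and has the motif in capitals.
Axin2, chr11:108811388-108811637, plus strand: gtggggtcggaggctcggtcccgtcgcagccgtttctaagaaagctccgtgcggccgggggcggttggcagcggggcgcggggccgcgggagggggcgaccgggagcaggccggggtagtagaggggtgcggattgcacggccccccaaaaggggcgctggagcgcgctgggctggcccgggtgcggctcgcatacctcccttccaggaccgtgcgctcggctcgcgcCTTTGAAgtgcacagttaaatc
Sp5, chr2:70305017-70305266, plus strand: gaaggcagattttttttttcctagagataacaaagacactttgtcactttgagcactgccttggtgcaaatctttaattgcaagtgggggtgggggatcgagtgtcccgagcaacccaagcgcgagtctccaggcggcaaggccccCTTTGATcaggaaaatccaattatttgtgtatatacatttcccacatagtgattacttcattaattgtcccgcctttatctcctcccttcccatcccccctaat
Cyp1a2, chr9:57590987-57591236, minus strand: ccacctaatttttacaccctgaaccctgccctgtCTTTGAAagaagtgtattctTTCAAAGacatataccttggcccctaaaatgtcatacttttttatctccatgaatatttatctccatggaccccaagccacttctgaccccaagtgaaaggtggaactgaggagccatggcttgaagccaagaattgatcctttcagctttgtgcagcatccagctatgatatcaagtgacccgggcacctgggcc
Cyp2e1, chr7:140343402-140343651, plus strand: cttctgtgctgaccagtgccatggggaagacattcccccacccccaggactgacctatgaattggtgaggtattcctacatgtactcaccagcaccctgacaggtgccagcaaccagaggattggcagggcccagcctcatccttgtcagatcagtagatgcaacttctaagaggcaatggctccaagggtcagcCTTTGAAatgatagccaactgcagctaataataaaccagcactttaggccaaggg
The motif began at position -22 from the transcript start in Axin2, -104 in Sp5 and -55 in Cyp2e1. Cyp1a2 held 2 non-overlapping copies, at -216 and -196 on opposite strands, and 0.386% of all promoters held at least 2. In the window of 1000 bases upstream, 5 members and 31.9% of all promoters had a match. The promoters of Lgr5, Glul, Oat, Rnf43, Znrf3 and Tbx3 had no such letters within 250 bases. A match of letters is a description of the promoter and does not show that a factor binds there.

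Total counts per library were 28.4 M to 30.6 M in 7c livers, 31.7 M to 34.2 M in vehicle livers, 33.0 M to 64.9 M in 7c kidneys and 27.9 M to 39.7 M in vehicle kidneys. Values are given as CPM, the count relative to the TMM-scaled library size of the tissue, so they compare a gene between samples and not one gene with another. Each tissue label was checked against defining markers. Hepatocyte markers summed to at least 85714 CPM in every liver and at most 331 CPM in every kidney. Kidney tubule markers summed to at least 36573 CPM in every kidney and at most 0.505 CPM in every liver. Of these 8 tubule markers 4 (Kap, Slc12a1, Slc34a1 and Umod) had 0 counts in all 10 livers. Some cell type markers differed between libraries or groups. The liver of 7c replicate 6 had 734 CPM of 8 skeletal muscle genes against 2.06 CPM or less in the other 9 livers. The summed cholangiocyte markers, mostly Spp1, were 28.6 to 34.5 CPM in 7c livers and 35.4 to 58.1 CPM in vehicle livers. The summed adipocyte markers were 62.1 to 164 CPM in 7c kidneys and 40.3 to 54.3 CPM in vehicle kidneys. The groups did not overlap in these sums, while among single genes this held for 0.719% in liver and 0.716% in kidney. Summed blood markers were 393 to 1270 CPM in 7c and 428 to 577 CPM in vehicle livers, and 471 to 2259 and 308 to 1309 CPM in kidneys. The part of these cell types in the values below was not tested, except where values without a library are given.

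In liver, the pericentral genes did not move together between the 7c and vehicle groups. With edgeR's quasi-likelihood test and a threshold of 0.05 on the adjusted p, 0 of the 10 members passed, beside 0.00666% of the 15012 genes tested, and the members' adjusted p was 1.00 throughout. DESeq2, limma-voom and the likelihood ratio test of edgeR also passed 0 members, and 6, 1 and 7 of all genes. Of the members 4 had a higher and 6 a lower fitted level with 7c, with a median log2 fold change of -0.05 (0.00 over all genes tested). At an unadjusted p under 0.05, 2 members were counted, Sp5 and Glul, both with higher values in 7c livers, beside 3.76% of all genes. For no member were the groups fully separate, as they were for 0.719% of all genes.

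**Figure D1:**
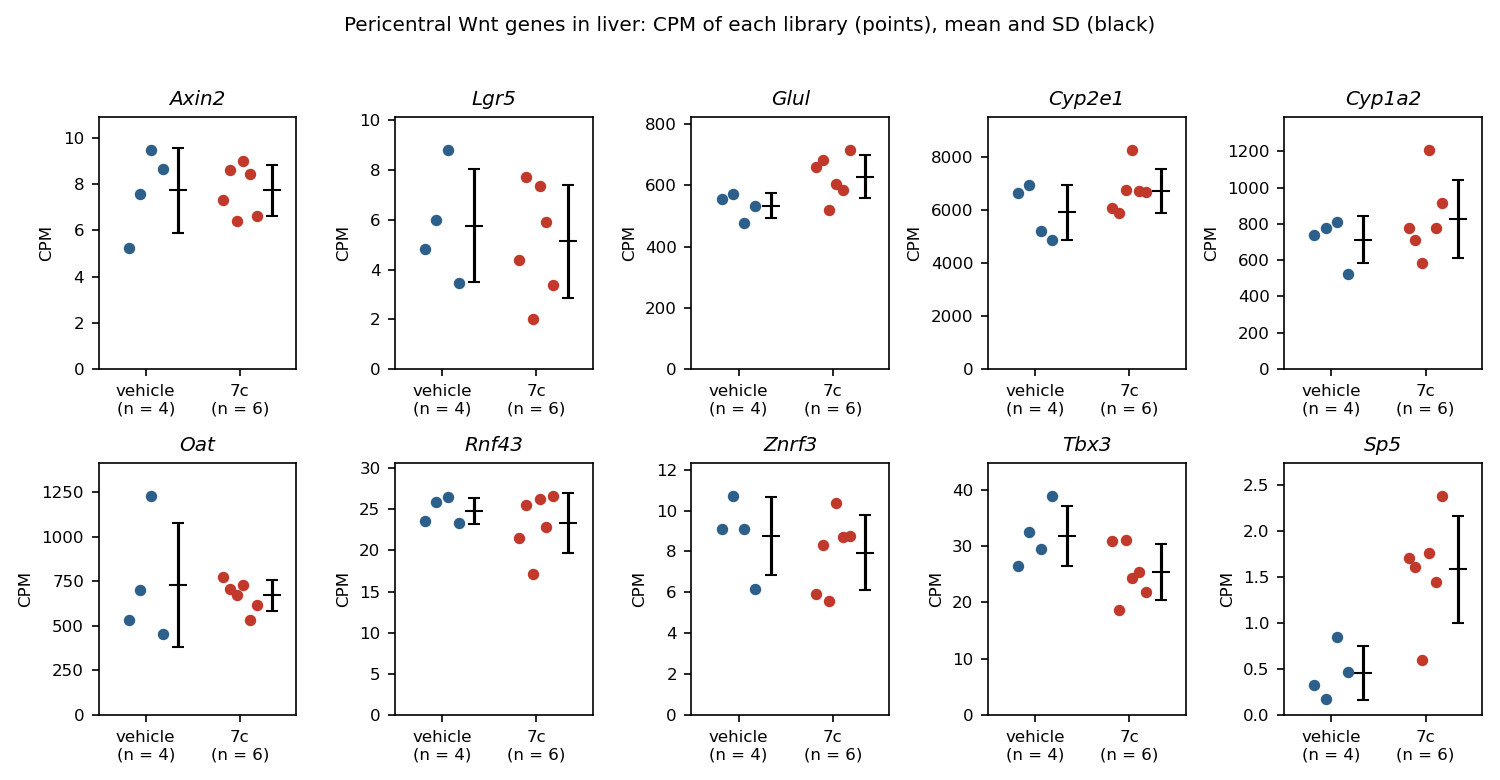
Liver CPM of each of the 10 pericentral genes, 1 panel per gene with its own axis from 0. Points are libraries (4 vehicle in blue, 6 7c in red), and the black bars are the mean and SD. The groups overlap in every panel, and in Sp5 and Glul 5 of the 6 7c livers lie above all vehicle livers.

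The direct feedback genes of the pathway had close to equal levels in the groups. Axin2 (ENSMUSG00000000142, chromosome 11, 108811169 to 108841609) had 5.24, 7.56, 9.46 and 8.63 CPM in the 4 vehicle livers. In the 6 7c livers its lowest, median and highest values were 6.38, 7.86 and 9.01 CPM. All 7c livers thus lay inside the vehicle range, and the log2 fold change was -0.00 with a 95% confidence interval of -0.43 to 0.42. Lgr5 (ENSMUSG00000020140, chromosome 10, 115286216 to 115423685) was the most variable of the feedback genes, with 4.82, 6.02, 8.81 and 3.45 CPM in vehicle livers and 2.03 to 7.72 CPM in 7c livers (median 5.16). Its log2 fold change of -0.17 had an interval of -0.98 to 0.65, wide enough to hold a change in either direction. Rnf43 (ENSMUSG00000034177, chromosome 11, 87553548 to 87626377) had 24.8 ± 1.6 CPM (SD, n = 4) with vehicle and 23.3 ± 3.64 CPM (SD, n = 6) with 7c. Znrf3 (ENSMUSG00000041961, chromosome 11, 5226324 to 5394939) had 8.76 ± 1.91 and 7.95 ± 1.84 CPM in the same order. The log2 fold changes of these receptor-removing ligases were -0.09 (interval -0.38 to 0.20) and -0.14 (-0.62 to 0.33), both smaller than the spread between mice.

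The transcription factors Sp5 and Tbx3 lay on opposite sides of 0. Sp5 (ENSMUSG00000075304, chromosome 2, 70305267 to 70308073) is scarce in liver, with 10, 6, 30 and 16 counts in the 4 vehicle libraries and 52, 50, 18, 52, 40 and 66 in the 6 7c libraries. In CPM these were 0.330, 0.172, 0.853 and 0.468 with vehicle, and 0.598, 1.66 and 2.38 as the lowest, median and highest values with 7c. The 7c liver below the top of the vehicle range was replicate 3, and the other 5 were above every vehicle liver. The log2 fold change was 1.78 (standard error 0.506, interval 0.62 to 2.95), a ratio of 3.44, with an unadjusted p of 0.00359 and an adjusted p of 1.00 in the edgeR fit. Without 7c replicate 6, which had the high skeletal muscle genes, it was 1.63, and without vehicle replicate 3, the highest of the vehicle livers, 2.28. Sp5 counts were even numbers in all 10 livers, as were 84.1% of all counts from 2 to 20 in the table. The cause of the even numbers was not tested, and with all counts halved the log2 fold change was 1.77. Sp5 is more abundant in kidney, and kidney tubule markers summed to 0.505 CPM or less in each 7c liver and 0.286 CPM or less in each vehicle liver.

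Tbx3 (ENSMUSG00000018604, chromosome 5, 119806298 to 119822797) had 26.5, 32.6, 29.5 and 38.9 CPM in vehicle livers and 18.6, 24.9 and 31.1 CPM as the lowest, median and highest values in 7c livers. Of the 7c livers 4 were below every vehicle liver and 2 were inside the vehicle range. The log2 fold change was -0.33 (standard error 0.154, interval -0.68 to 0.02), with an unadjusted p of 0.0509 and an adjusted p of 1.00 from edgeR. Tbx3 shares 1468 of its 8233 exon bases with the antisense gene Tbx3os1, which had at most 239 counts in any library. The strand setting of the counting is not given in the sources used here.

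Of the pericentral enzymes, 3 had higher and 1 had lower fitted levels in 7c livers, and none passed the threshold. Glul (ENSMUSG00000026473, chromosome 1, 153775690 to 153785469), known to be expressed in the hepatocytes nearest the central vein, had 554, 572, 478 and 531 CPM in vehicle livers. In 7c livers its lowest, median and highest values were 521, 632 and 715 CPM, and all but replicate 3 exceeded the highest vehicle value. The log2 fold change was 0.24 (standard error 0.102, interval -0.00 to 0.47), with an unadjusted p of 0.0384 and an adjusted p of 1.00 from edgeR. The interval used fewer degrees of freedom than the test, so it held 0 although the unadjusted p was under 0.05.

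Cyp2e1 (ENSMUSG00000025479, chromosome 7, 140343652 to 140355167), which oxidizes ethanol and other small molecules, had 5910 ± 1025 CPM with vehicle and 6727 ± 833 CPM with 7c. Cyp1a2 (ENSMUSG00000032310, chromosome 9, 57584196 to 57590986), which oxidizes caffeine and aromatic amines, had 712 ± 130 and 829 ± 214 CPM. Their log2 fold changes of 0.19 (interval -0.11 to 0.48) and 0.22 (-0.20 to 0.64) were within the spread between mice. For both genes 7c replicate 4 was the highest of the 10 livers, at 8261 CPM of Cyp2e1 and 1206 CPM of Cyp1a2. Oat (ENSMUSG00000030934, chromosome 7, 132159153 to 132191517) had 532 to 774 CPM in 7c livers (median 690) and 535, 702, 1229 and 454 CPM in vehicle livers. The vehicle spread came from replicate 3 at 1229 CPM, and the log2 fold change was -0.12 with that liver and 0.26 without it. With this liver the interval was -0.63 to 0.39.

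**Figure D2:**
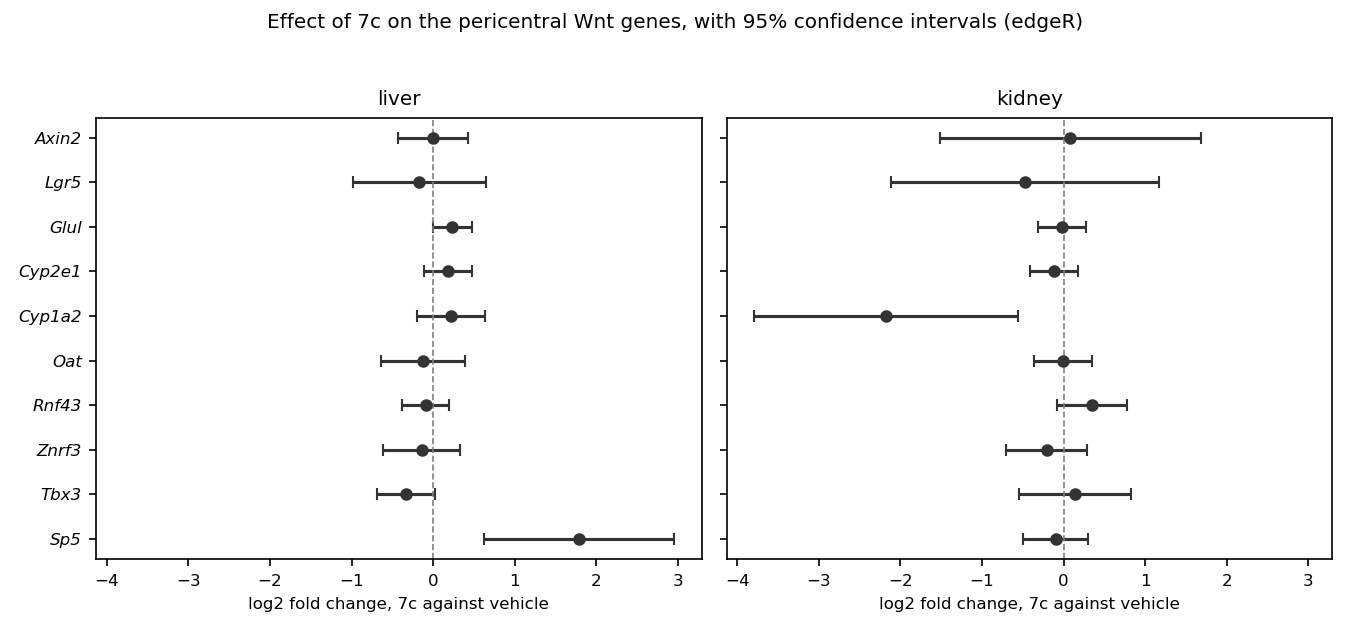
Log2 fold change of 7c against vehicle for each pericentral gene in liver (left) and kidney (right), from edgeR, with 0 dashed. Bars are 95% confidence intervals with fewer degrees of freedom than the edgeR test, so they are wider than its p implies. The intervals exclude 0 for Sp5 in liver (0.62 to 2.95) and Cyp1a2 in kidney (-3.79 to -0.55), and both genes had an adjusted p of 0.997 or more. The Glul interval in liver held 0 although its unadjusted p was 0.0384 (edgeR).

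From mouse to mouse, the pericentral genes did not share 1 pattern. Over the 10 livers, which share the tissue and differ in treatment and depth, Pearson's r of log2 CPM was 0.79 for Rnf43 with Znrf3, 0.74 for Lgr5 with Rnf43 and 0.72 for Lgr5 with Znrf3 (Spearman's rho 0.71, 0.47 and 0.55). Without the liver of 7c replicate 3, which was the lowest of the 7c group for these genes, they were 0.72, 0.41 and 0.55, so the relation of Lgr5 with Rnf43 rested largely on that liver. These values without a liver were computed after seeing the data. Axin2 and Lgr5 had an r of 0.59 (rho 0.68), which was 0.69 without the 2 livers farthest from the Axin2 median and 0.96 within the 6 7c livers. With any 1 liver left out the r ran from 0.50 to 0.81.

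Glul did not follow Axin2, with an r of -0.11 (rho -0.14) that was 0.39 without the 2 livers farthest from the Glul median and -0.69 without the 2 farthest from the Axin2 median. The sign of this relation rests on those livers. Over the 10 livers the member closest to Glul was Sp5 (r 0.63, rho 0.71), and the member farthest from it was Tbx3 (r -0.66, rho -0.67). Without the 2 livers farthest from the Glul median Lgr5 was as close as Sp5 (both r 0.68), while over all 10 its r was 0.02. Within the 6 7c livers the r of Glul was 0.88 with Sp5 and -0.64 with Tbx3, so both relations had the same sign inside 1 treatment group. Tbx3 had a negative r with 8 of the other 9 members, the exception being Axin2 (0.01), and with any 1 liver left out the sign held for 7 of them. For Oat it was 0.28 without vehicle replicate 4, and for Cyp2e1 -0.04.

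The livers at the extremes were the same for many members. The liver of 7c replicate 3 was the lowest of its group for 7 members (Axin2, Lgr5, Glul, Cyp1a2, Rnf43, Znrf3 and Sp5) and the highest for Tbx3. Vehicle replicate 3 was the highest of its group for 6 members (Axin2, Lgr5, Cyp1a2, Oat, Rnf43 and Sp5) and the lowest for Glul. Vehicle replicate 4 was the lowest of its group for 6 members (Lgr5, Cyp2e1, Cyp1a2, Oat, Rnf43 and Znrf3) and the highest for Tbx3. How often these livers were extreme over all genes tested was not counted, so the counts are not particular to the members. The liver of 7c replicate 3 had the fewest genes detected of its group (18352), and vehicle replicates 3 and 4 the fewest of theirs (17718 and 17952). The part of this in the extremes was not tested.

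**Figure D3:**
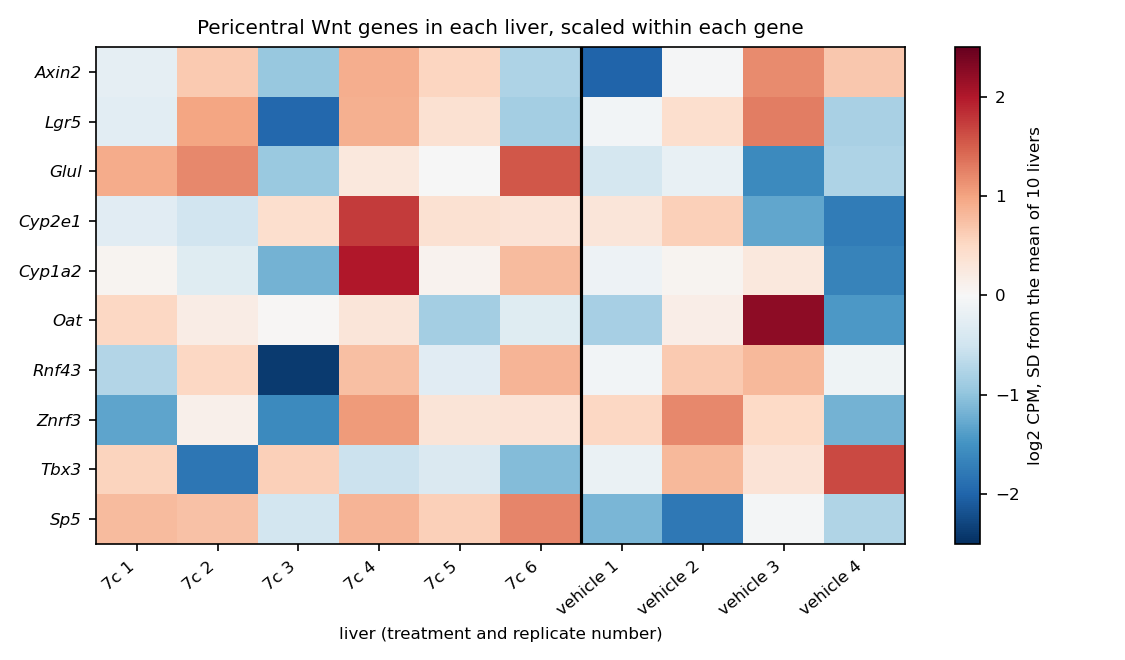
Log2 CPM of each pericentral gene (from top to bottom) in each of the 10 livers (from left to right, 7c left of the black line), as SD from the gene's mean over the livers, red above and blue below. The 7c liver 3 is low for most genes (mean -0.84 SD over the 10 members) and the 7c liver 4 is high (0.82 SD), a range within 1 treatment group.

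The genes with the pattern most like that of Glul over the 10 livers were E4f1, 2200002D01Rik, Gm5436, Shroom3 and Wwtr1, with r from 0.89 to 0.94. Those most like Axin2 were 3300002P09Rik, Rgr, Gm12191, Paqr8 and Csnk1g1, with r from 0.91 to 0.95. These are the highest of 15011 values over 10 livers, and no member was among them. The closest members ranked 350 (Sp5 with Glul) and 670 (Lgr5 with Axin2), so many genes outside the list were closer.

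In kidney, where these genes are not zoned around a central vein, 0 of 10 members passed the threshold, beside 0% of the 17749 genes tested. DESeq2, limma-voom and the likelihood ratio test also passed 0 members, and 18, 2 and 14 of all genes. An unadjusted p under 0.05 was reached by 1 member, Cyp1a2, beside 2.61% of all genes. The fitted level was higher with 7c for 3 members and lower for 7, with a median log2 fold change of -0.06 (-0.01 over all genes tested). Glul had 429 ± 62.2 CPM (SD, n = 4) in vehicle and 423 ± 47.5 CPM (SD, n = 6) in 7c kidneys, a log2 fold change of -0.02 (interval -0.31 to 0.27). Cyp2e1 (-0.11, -0.41 to 0.18), Oat (-0.00, -0.36 to 0.35), Sp5 (-0.10, -0.49 to 0.30) and Znrf3 (-0.21, -0.70 to 0.28) were similarly bounded.

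Cyp1a2 was the member with the largest difference in kidney and was near its detection limit there. The vehicle kidneys had 42, 14, 16 and 10 counts, or 1.10, 0.390, 0.428 and 0.349 CPM. The 7c kidneys had 4, 2, 12, 8, 0 and 4 counts, or 0, 0.0783 and 0.321 CPM as the lowest, median and highest values. Cyp1a2 thus reached 10 counts in all 4 vehicle kidneys and in 1 of the 6 7c kidneys, and it entered the test through the group in which it was high. The values that follow are therefore a description, and they support no difference between the groups. All 6 7c kidneys were below all 4 vehicle kidneys (0.406% of the genes tested in kidney). The log2 fold change was -2.17 (standard error 0.702, interval -3.79 to -0.55), with an unadjusted p of 0.00883 and an adjusted p of 0.997 from edgeR. With no filter the log2 fold change was -2.155 (unadjusted p = 0.0105, adjusted p = 0.777, edgeR). The gene did not pass the filter with halved counts or without 7c replicate 3 or any 1 vehicle kidney. The 0 in 7c replicate 5 allows up to 0.0939 CPM (3 counts, covering counting error only). This bound takes 1 count as 1 fragment, which the many even counts in the table make doubtful, and it would be higher if the reads of a pair were counted apart.

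Other genes that are abundant in hepatocytes were read in the same kidneys, and none passed the threshold in the edgeR fit made here. Of the 8 hepatocyte markers 7 were tested in kidney and all 7 had log2 fold changes below 0 (median -1.58), 5 of them with an unadjusted p under 0.05 (2.61% of all genes). The exception in size was Ttr, at -0.08 with 2 7c kidneys above all vehicle kidneys. The sum of the list, mostly Ttr, was 81.0 to 331 CPM in 7c and 211 to 319 CPM in vehicle kidneys, and these ranges overlapped. On a scale common to all 20 libraries, the Cyp1a2 level of vehicle kidneys was 0.0527% of that of vehicle livers, and in the 7c group it was 0.00984%. For albumin (Alb) these shares were 0.0408% and 0.0167%, and for Serpina3k 0.0342% and 0.00594%. The other hepatocyte markers lay between 0.0269% and 0.0686% with vehicle and between 0.00434% and 0.0200% with 7c, except Ttr at 2.32% and 1.87%. Cyp2c29 and Cps1, liver enzymes named here after their values were seen, had shares of 0.0376% and 0.0239% with vehicle and 0.00640% and 0.00291% with 7c. For both every 7c kidney was below every vehicle kidney (0.406% of the genes tested in kidney). Cps1 averaged 0.922 CPM in vehicle and 0.112 CPM in 7c kidneys on this scale, so the filter could act on it as on Cyp1a2. Chosen after their values were seen, both enzymes are a description only. The part of hepatocyte RNA in the Cyp1a2 difference was not tested.

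The feedback genes were scarce in kidney. Axin2 had 50, 0, 71 and 30 counts in the vehicle kidneys and 14 to 93 in the 7c kidneys. The log2 fold change was 0.08 (interval -1.52 to 1.68), and its sign depended on single kidneys, with -0.33 without vehicle replicate 2 and -0.02 without 7c replicate 6. With a kidney left out it reached up to 0.52, and limma-voom gave 1.35. The 0 allows up to 0.0835 CPM, with the same limit as for Cyp1a2. Lgr5 had 19, 16, 18 and 5 counts with vehicle and 0 to 36 with 7c, and a log2 fold change of -0.47 (-2.11 to 1.17). Rnf43 had 4.75 ± 0.573 CPM with vehicle and 6.03 ± 1.28 CPM with 7c, with 4 of 6 7c kidneys above every vehicle kidney, a log2 fold change of 0.34 (-0.09 to 0.77) and an unadjusted p of 0.0889 (adjusted p = 0.997, edgeR). Tbx3 had 3.17 ± 1.22 and 3.48 ± 0.969 CPM, and a log2 fold change of 0.14 (-0.55 to 0.83).

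**Figure D4:**
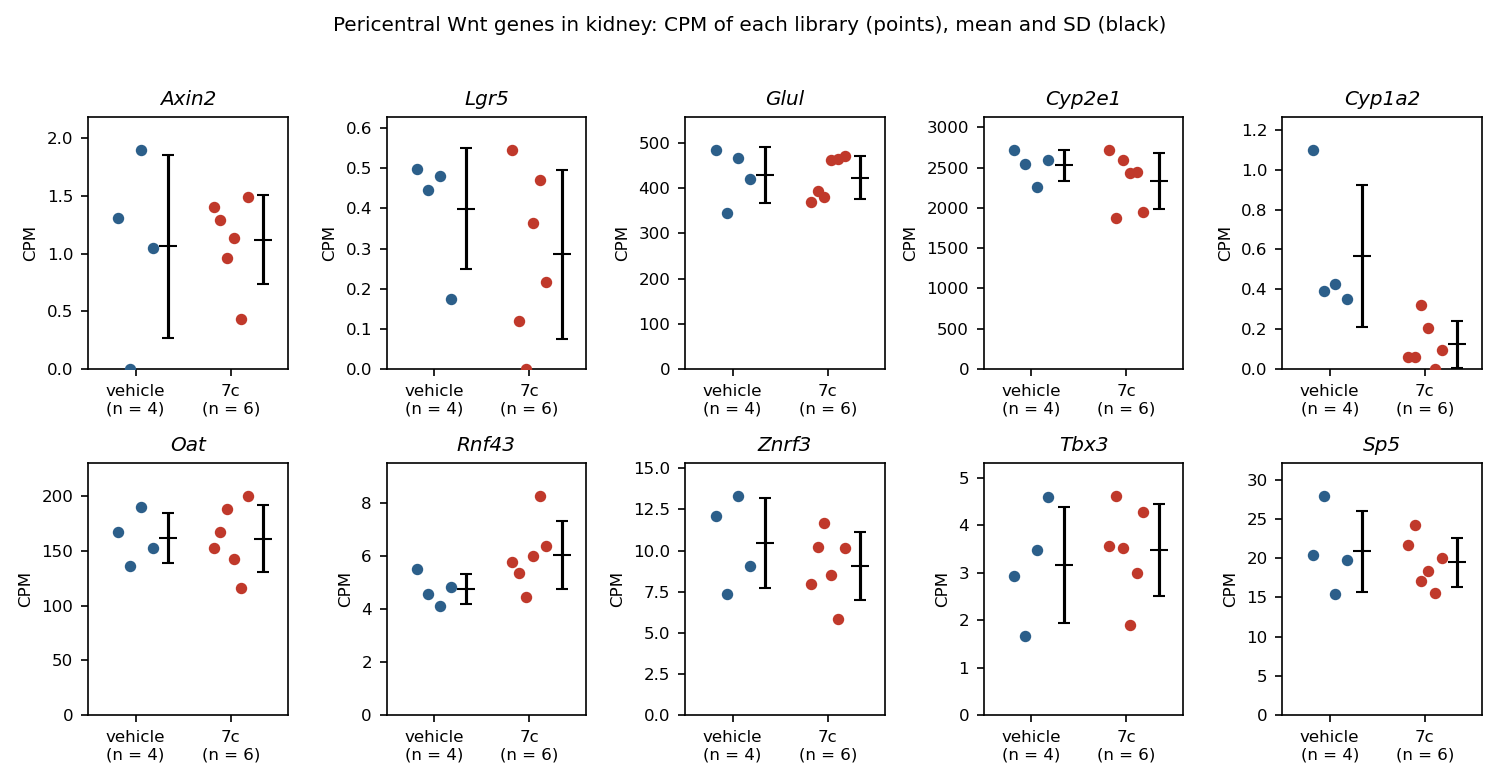
Kidney CPM of each of the 10 pericentral genes, 1 panel per gene with its own axis from 0, drawn as for liver (vehicle in blue, 7c in red, mean and SD in black). The groups are separate for Cyp1a2 alone, where the highest 7c value is 0.321 CPM and the lowest vehicle value 0.349 CPM.

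Whether the difference between 7c and vehicle was unequal in the tissues was tested as the interaction of treatment and tissue over all 20 libraries. Of the 10 members 0 passed the threshold, beside 0.00706% of the 14163 genes tested in both tissues, and 2 had an unadjusted p under 0.05, beside 2.49%. The effect in liver minus the effect in kidney was 2.41 on the log2 scale for Cyp1a2 (standard error 0.556, unadjusted p = 0.000288, adjusted p = 0.313) and 1.87 for Sp5 (standard error 0.452, unadjusted p = 0.000450, adjusted p = 0.425). In the likelihood ratio test of edgeR the adjusted p was 0.00116 for Cyp1a2 and 0.0169 for Sp5, and in DESeq2 it was 0.000225 for Cyp1a2 and not given for Sp5. With limma-voom it was 1.00 for both, so the call depended on the test. The filter on kidney counts acts on the Cyp1a2 value here too, and with no filter its adjusted p was 0.0845. The fit treated the 20 libraries as independent, and the labels do not say which liver and kidney came from the same mouse. The other 8 members had adjusted p of 1.00.

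Between the tissues of the vehicle mice most of these genes differed. The members were chosen as hepatocyte genes, so a higher level in liver is a check of the tissues and not a finding. Of the 10 members 9 passed the threshold, beside 53.4% of the 17245 genes tested, 8 of them higher in liver (25.7% of all genes) and 1, Sp5, higher in kidney (27.7%). These levels were scaled over the 8 vehicle libraries together, so they differ from the CPM given within a tissue. Per kb of the canonical transcript, which allows genes to be compared, Cyp2e1 led in vehicle livers with 3518 ± 677 CPM per kb (SD, n = 4). Cyp1a2 (454 ± 86.0), Oat (413 ± 193) and Glul (392.1 ± 36.8) followed and did not differ beyond their spread. Tbx3 (7.73 ± 1.26) and Rnf43 (7.66 ± 0.553) formed the next level, then Axin2 (2.18 ± 0.495), Znrf3 (1.72 ± 0.401) and Lgr5 (1.53 ± 0.595), whose spreads overlapped, and Sp5 was last with 0.269 ± 0.169 CPM per kb. The length matters most for Oat, which had 117 CPM per kb of all its annotated exons, below Glul at 169 and Cyp1a2 at 438 on that scale.

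In vehicle kidneys the order was different. Cyp2e1 (969 ± 76.2 CPM per kb), Glul (203 ± 28.2) and Oat (59.2 ± 8.02) were the most abundant, each apart from the next, and Sp5 came next with 8.03 ± 2.07 CPM per kb. Znrf3 (1.32 ± 0.338) and Rnf43 (0.948 ± 0.113) overlapped, followed by Tbx3 (0.497 ± 0.190), Cyp1a2 (0.233 ± 0.145), Axin2 (0.193 ± 0.144) and Lgr5 (0.0685 ± 0.0259), of which no neighbours differed beyond their spread.

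The difference between liver and kidney was therefore far from uniform over the set. Cyp1a2 was 1903-fold higher in liver (10.9 on the log2 scale, SE 0.420, adjusted p = 4.80e-09 from edgeR), Lgr5 21.8-fold, Tbx3 15.6-fold, Axin2 11.2-fold, Rnf43 8.08-fold, Oat 6.98-fold, Cyp2e1 3.63-fold and Glul 1.93-fold (adjusted p = 0.000265). The Axin2 difference, 3.48 on the log2 scale, was 4.75 with limma-voom. For Znrf3 the difference was 0.38 on the log2 scale (SE 0.248, adjusted p = 0.225) and did not pass, whereas for the related ligase Rnf43 it was 3.01 (SE 0.157, adjusted p = 3.95e-08). Sp5 was 29.4-fold higher in kidney (-4.88 on the log2 scale, SE 0.412, adjusted p = 1.98e-06, and -5.49 without vehicle replicate 3), with 0.221 to 1.05 CPM in vehicle livers and 12.4 to 22.8 CPM in vehicle kidneys on the scale of this comparison.

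**Figure D5:**
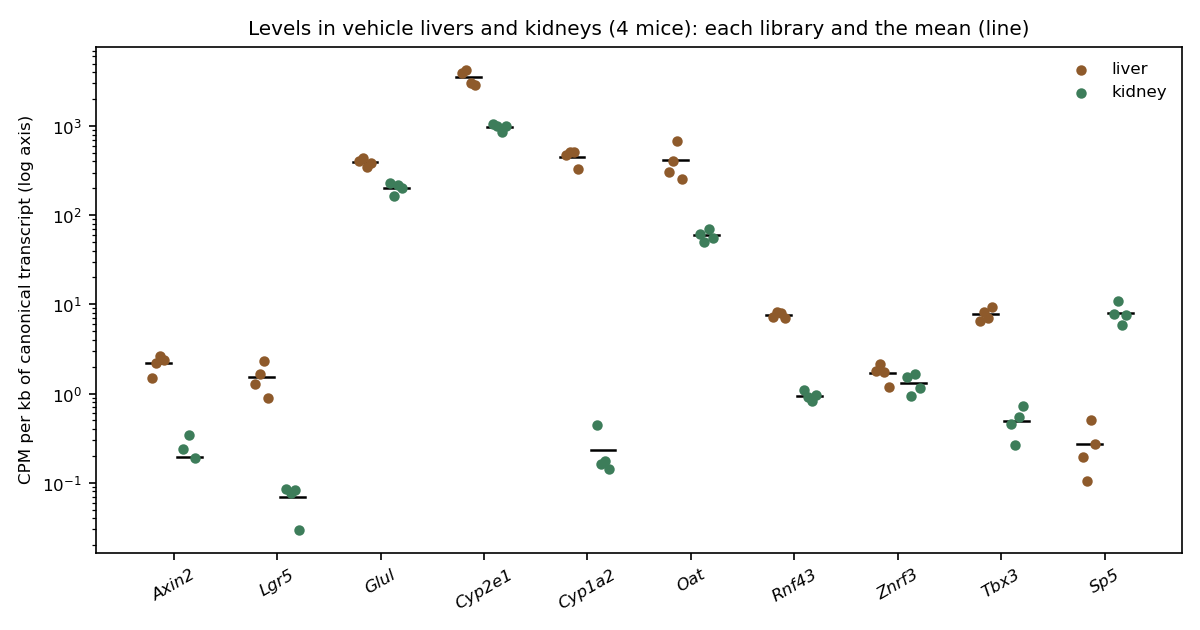
CPM per kb of canonical transcript of each pericentral gene in the 4 vehicle livers (brown) and 4 vehicle kidneys (green), on a log axis. Points are libraries and lines are means, and the kidney without Axin2 counts cannot be drawn on this axis but is in its mean. Sp5 is the member with kidney above liver, and the Znrf3 points of the tissues overlap.

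In the rest of the pathway and of the zonated genes, 0 genes of the lists below passed the edgeR threshold in either tissue. Genes with an unadjusted p under 0.05 included Axin1 (-0.26), Lect2 (0.30) and Aldh1b1 (0.49) in liver, and Cyp2c29 (-2.60) and Pigr (-0.50) in kidney, named here with their log2 fold changes after their values were seen. The paper's own edgeR analysis did list Cyp2c29 as lower in 7c kidneys at an adjusted p under 0.05. It listed few genes in either tissue and no member. The cause of the difference between the fits was not tested. Of 11 genes for Wnt ligands, R-spondins, their secretion and the endothelium of the central vein, 10 were tested in liver, 5 above and 5 below 0 (median log2 fold change 0.01). The ligands of central vein endothelium had 2.23 ± 0.312 CPM with vehicle and 3.10 ± 0.919 with 7c for Wnt2, 1.98 ± 0.859 and 1.19 ± 0.574 for Wnt9b, and 5.87 ± 1.07 and 5.63 ± 0.859 for Rspo3. Their log2 fold changes were 0.47, -0.74 and -0.06, with unadjusted p of 0.109, 0.100 and 0.758 in edgeR. Summed endothelial markers were 121 to 265 CPM in 7c and 192 to 223 CPM in vehicle livers, with 5 of 6 below 0, and their part in these values was not tested. Wls, needed for Wnt secretion, and Kit, a marker of pericentral endothelium, were the most abundant of the list beside Rspo3 and had log2 fold changes of 0.06 and -0.23. In kidney 11 were tested, 5 above and 6 below 0, and Wls, Thbd and Kit, the most abundant, lay between -0.21 and -0.02.

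Of 13 receptor genes, 10 were tested in liver, 2 above and 8 below 0 (median -0.11). The co-receptors Lrp5 and Lrp6 and the R-spondin receptor Lgr4, the most abundant, had log2 fold changes of -0.03, -0.11 and -0.11. In kidney 13 were tested, 6 above and 7 below 0, with Lgr4 at -0.30, Lrp6 at -0.02 and the Wnt receptor Fzd4 at 0.02.

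All 23 genes of signal transduction were tested, with 5 above and 18 below 0 in liver (median -0.04) and 11 above and 12 below 0 in kidney. The target of CHIR99021 is encoded by Gsk3a, with 35.4 ± 1.94 CPM in vehicle and 32.4 ± 4.50 in 7c livers, and Gsk3b, with 31.9 ± 2.69 and 28.9 ± 2.35 CPM. Beta-catenin itself (Ctnnb1) had 166 ± 10.5 and 163 ± 12.4 CPM, and the factor Tcf7l2 17.7 ± 1.11 and 15.9 ± 1.81 CPM. Their log2 fold changes were -0.13, -0.14, -0.02 and -0.16, and in kidney 0.03, -0.15, -0.13 and -0.04. Of the abundant genes of the list, Csnk1a1 and Dvl1 were at -0.04 and -0.00 in liver, and Csnk1a1 and Tle3 at -0.07 and 0.11 in kidney. These are mRNA levels, and neither kinase activity nor beta-catenin protein was measured in these libraries.

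Other Wnt target genes, Notum, Nkd1, Ccnd1 and 7 more, gave 8 tested genes in liver, 5 above and 3 below 0 (median 0.12), and 9 in kidney, 2 above and 7 below (median -0.11). Notum, a secreted Wnt inhibitor, had a log2 fold change of 0.11 in liver and -0.06 in kidney, and the feedback inhibitor Nkd1 0.13 in liver. Sox9 was at -0.27 in liver, where it is also a cholangiocyte marker, and Ccnd1 and Myc were at -0.11 and -0.25 in kidney.

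Genes of both ends of the lobule were compared as a check of zonation. Of 14 other pericentral genes, 11 were above and 3 below 0 in 7c livers (median 0.17), and of 14 periportal genes 7 were above and 7 below (median 0.01), beside 50.4% of all genes above 0. The general hepatocyte markers in the same livers were above 0 for 7 of 8 (median 0.16), with 0 past the threshold, and their part in the pericentral values was not tested. In liver 0 genes of either list passed the threshold. The abundant pericentral genes Cyp2c29 and Cyp2c50, which encode cytochromes P450, and Rgn (regucalcin) had log2 fold changes of -0.06, 0.14 and 0.20, and the abundant periportal genes Ass1 and Cps1, of the urea cycle, and Pigr, the receptor that carries IgA into bile, 0.05, -0.02 and -0.09. In kidney 9 pericentral genes were tested (median -0.26), among them the abundant Slc13a3, Cyp2a5 and Avpr1a at 0.15, 0.19 and -0.30. Of the 13 periportal genes tested there (median -0.43) Ass1, Pck1 and Pigr were the most abundant, at 0.02, 0.06 and -0.50.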

How the data were processed

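RNA-seq libraries from polyadenylated RNA of 10 livers and 10 kidneys were analysed. Per the submitters' processing notes, STAR 2.7.11b, featureCounts 2.0.6 and the build GRCm39 were used, and the authors deposited raw counts of 57010 genes. The annotation release, the strand setting and the treatment of multimapping reads are not given in the sources used here. Symbols, positions and transcript lengths came from GENCODE vM39 by Ensembl identifier (56310 genes matched), and the genes without a symbol held 0.0417% of the counts. Even numbers made up 84.1% of the counts from 2 to 20, 61.8% of those from 100 to 1000 and 54.0% of those from 1000 to 10000.

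Genes that reached 10 counts in 50% or more of a comparison's libraries were tested with the quasi-likelihood F-test of edgeR 4.0.16 (R 4.3.3, TMM, Benjamini-Hochberg over all genes tested, threshold 0.05). For the interaction, genes had to pass in both tissues. Log2 CPM for correlations used a prior count of 2. Confidence intervals are 95%, from the standard error and the residual degrees of freedom of a tissue's fit. The edgeR test adds degrees of freedom shared across genes, so the intervals are wider than its p implies. The script for these fits was tested on simulated data. Each result was recomputed with DESeq2 1.42.0, the likelihood ratio test of edgeR, voom weights (limma 3.58.1) and RLE scaling, without the filter, with the replicate number as a block, with liver and kidney fitted together, and without each library in turn. Halved counts were added after seeing the data. Deviations of samples with the same number from their group means had an r of 0.0115 to 0.259 between liver and kidney, -0.05 to 0.03 between treatments in liver and -0.03 to 0.21 in kidney. The named genes were the members, Gsk3a, Gsk3b, Ctnnb1, Tcf7l2, Rspo3, Wnt2 and Wnt9b, the 3 most abundant and any called genes of each pathway or zone list, and the 5 genes most like Glul and Axin2. The members and lists were chosen with earlier results of these data known.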

Additional observations from a re-analysis of the deposited data

Results flagged for a closer look

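Values of each member in each group of a tissue were tested with Dixon's test at 95%, 40 tests in all, of which chance alone flags about 1 in 20. It marked 3 libraries. Lgr5 was low in the kidney of vehicle replicate 4 (0.175 CPM, from 5 counts). Cyp2e1 was high in the liver of 7c replicate 4 (8261 CPM). Cyp1a2 was high in the kidney of vehicle replicate 1 (1.10 CPM, from 42 counts). No member had a difference between the tissues' effects past the adjusted threshold in the edgeR quasi-likelihood test.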

How the results depend on the processing

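Of 491 values of the members recomputed under an alternative, 457 kept their direction and their side of the threshold, 3 passed it only under the alternative and 31 changed sign. No member passed in liver or kidney under any alternative run, and 9 passed between vehicle tissues under all of them. For the interaction 1 member passed with DESeq2 and 2 with the likelihood ratio test. Over all genes, liver calls (1) were 6 with DESeq2, 7 with the likelihood ratio test, 4 with no filter, 4 with both tissues in 1 fit, and 0 to 2 with a replicate left out. Kidney calls (0) were 18, 14, 3, 18 and 0 to 3 in the same order, 2 with limma-voom and 2 with halved counts, an alternative chosen after seeing the data. Interaction calls (1) were 16 with DESeq2, 22 with the likelihood ratio test, 11 with no filter, 0 with limma-voom and 0 to 6 with a replicate left out. The cause was not tested.

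Replicate numbers were not taken to pair the samples, since the labels do not tie a number to a mouse and not every correlation of deviations was over 0.1. Between the tissues 8 of 10 samples correlated best with their own number, a hint from the data that numbers may mark a mouse. With the replicate number as a block, liver calls were 0, interaction calls 0, kidney calls 0 and tissue calls 8744 (9215 without it). The interaction of Cyp1a2 then had an adjusted p of 0.931 and that of Sp5 1.00. The block gave log2 fold changes of 0.0385 for Axin2 and 0.0949 for Oat in liver, and 0.0111 for Oat in kidney. It changed no call of a member.

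Signs changed for Axin2, Lgr5 and Oat in liver and for Axin2, Glul, Oat, Tbx3 and Sp5 in kidney. Axin2 in liver was 0.000291 with RLE size factors, 0.00689 with limma-voom, 0.0112 with no filter and 0.00290 with both tissues in 1 fit. Oat in kidney was 0.00719 with no filter and 0.00612 with both tissues in 1 fit. With a replicate left out, liver values ran from -0.15 to 0.11 for Axin2, -0.35 to 0.11 for Lgr5 and -0.29 to 0.26 for Oat. Kidney values ran from -0.33 to 0.52 for Axin2, -0.10 to 0.0452 for Glul, -0.0764 to 0.0820 for Oat, -0.0681 to 0.37 for Tbx3 and -0.22 to 0.0818 for Sp5. Axin2 in kidney was 1.35 with limma-voom. Sp5 in liver stayed between 1.51 and 2.28, with an adjusted p of 0.141 to 1.00. Cyp1a2 in kidney stayed between -2.502 and -1.871 where it could be tested, with an adjusted p of 0.124 to 1.00. Depth limits Sp5 in liver and Axin2, Lgr5 and Cyp1a2 in kidney, each with counts under 100 in every library.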
